A study of Mus musculus with 12 samples.

Results

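Microglia and macrophage genes were followed in bulk RNA of the dorsal raphe (DR) of control mice and of mice lacking STAT3 in serotonergic cells. They are 39 genes, chosen by name as markers of microglia and of brain macrophages, of 24421 genes listed in the count files. All 39 were listed, had counts in every animal and passed the filter on low counts. They were divided into 13 homeostatic microglial genes, 8 genes that rise in activated microglia, 3 genes of border macrophages and 15 genes shared by these states. A library was made per mouse, from 4 controls, of which 2 were female, and from 8 STAT3 KO mice, of which 4 were female. STAT3 KO mice were Sert Cre/+; Stat3 fl/fl, and the controls were littermates of the genotype Sert Cre/+; Stat3 fl/+. Every animal thus carried the Cre allele and at least 1 floxed Stat3 allele, and the controls carried 1 floxed copy. The mice were adults of a C57BL/6 x 129 background, housed singly. Cre was driven by the serotonin transporter gene, so recombination was directed to SERT-expressing cells and not to microglia. From each brain a square of DR tissue, 1.5 mm on a side, was cut below the aqueduct from 4 coronal sections of 300 µm. The libraries therefore hold RNA of every cell in that square, and fewer cells of a type cannot be told apart from less RNA per cell.

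Microglia are the resident phagocytes of the brain parenchyma. They depend on the receptor CSF1R for survival and on the transcription factors PU.1 (Spi1), IRF8 and SALL1 for their identity. In the resting state they survey the tissue through purinergic and chemokine receptors, and on injury or inflammation they lower these receptors and raise phagocytic, lysosomal and antigen-presenting genes. Border macrophages of the meninges, perivascular spaces and choroid plexus share the core myeloid genes, and are set apart by scavenger receptors such as MRC1, CD163 and LYVE1. Microglia also secrete C1q, which starts the classical complement cascade and tags synapses for removal.

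Between 24379588 and 29645210 reads were counted on genes per library, of which the 39 genes held 19296 to 23640, or 0.0725% to 0.0852%. Levels are given as CPM, the count scaled to the library's TMM-normalised total. The tissue expressed the serotonergic markers Tph2 (540 to 879 CPM) and Slc6a4 (151 to 405 CPM) in every animal. Stat3 itself was at 64.7 to 67.9 CPM in the controls and 62.7 to 70.1 CPM in the STAT3 KO mice, so its counts did not separate the genotypes. These counts are per gene, while Cre removes only some of its exons. For those exons the paper reported lower expression in DR tissue of STAT3 KO mice by qRT-PCR. Markers of neighbouring tissue differed between libraries. The forebrain neuron list was highest in control 4, and the choroid plexus list in STAT3 KO 16 and 8. Ependymal genes were lowest in controls 13 and 4, and STAT3 KO 6 had the most Alas2, an erythroid gene (19.0 CPM against at most 4.94 CPM elsewhere). Their part in the results below was not tested.

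The 3 C1q genes, which were among the 5 genes that followed the other members most closely, lie side by side on the minus strand of chromosome 4 (GRCm38). C1qb spans chr4:136880129-136886187, C1qc chr4:136889804-136893065 and C1qa chr4:136895917-136898803, with 3617 bases between C1qb and C1qc and 2852 between C1qc and C1qa. The 3 chains moved together across animals, and the sequence before the start is shown for C1qb and C1qc. The stretches are from RefSeq (GRCm38.p6), read 5′ to 3′ on the minus strand, and end before the annotated gene. That of C1qb covers chr4:136886201-136886450 and that of C1qc chr4:136893066-136893164. Capitals mark GAGGAA or its complement, the core of the PU box bound by PU.1.
C1qb: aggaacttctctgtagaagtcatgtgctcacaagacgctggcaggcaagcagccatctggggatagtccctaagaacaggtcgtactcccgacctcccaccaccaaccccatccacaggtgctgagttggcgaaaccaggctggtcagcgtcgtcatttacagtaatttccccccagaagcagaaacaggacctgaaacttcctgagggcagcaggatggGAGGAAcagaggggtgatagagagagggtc
C1qc: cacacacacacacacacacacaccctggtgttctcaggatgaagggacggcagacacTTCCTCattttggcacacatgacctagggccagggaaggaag

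A sequence of 250 bases before a RefSeq start was at hand for 27 of the 39 genes and for 27025 genes in all. Matches were counted over whole windows, although some windows lie partly or wholly inside the gene as annotated by GENCODE. GAGGAA, on either strand, was present for 14 of the 27 (51.85%) and for 25.85% of all genes. The 14 were Aif1, C1qb, C1qc, Cd53, Cd68, Ctss, Fcgr3, Fcrls, Itgam, Laptm5, Mrc1, P2ry13, Ptprc and Trem2. The matches of Aif1, Fcgr3, Fcrls and Laptm5 lie inside the annotated gene, and that of Ptprc crosses its edge. The longer GAGGAAGT, which contains GAGGAA, was found for C1qc alone among the 27, against 2.794% of all genes. Of the 27, 0 held GGAANNGAA, a composite of ETS and IRF motifs (8.011% of all genes), and 0 held TTCCNGGAA, the STAT3 motif (1.092%). A match of letters describes these windows and is not a measured site.

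Levels of different genes were compared per kilobase of exon. Lgmn, which codes for the lysosomal protease legumain, had the highest level at 83.9 CPM per kb (79.0 to 89.6 over the 12 animals). Ctss, which codes for the microglial protease cathepsin S, came second at 54.7 CPM per kb. They were followed by C1qb (35.9) and C1qa (32.4), whose ranges overlapped, and then by C1qc (16.7), Tyrobp (15.1) and Csf1r (12.4). The lowest were Ptprc (0.223), Lyve1 (0.132) and Cd163 (0.124 CPM per kb). Only 4 of the 38 pairs of neighbours in this order had ranges that did not overlap, namely Lgmn and Ctss, Ctss and C1qb, C1qa and C1qc, and Mrc1 and Ptprc. The median of the 39 genes was 3.63 CPM per kb, against 5.30 CPM per kb over the 14893 tested genes with a known length. Ptprc's low value rests on an exon length of 18313 bases, the longest of the 39.

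**Figure D1:**
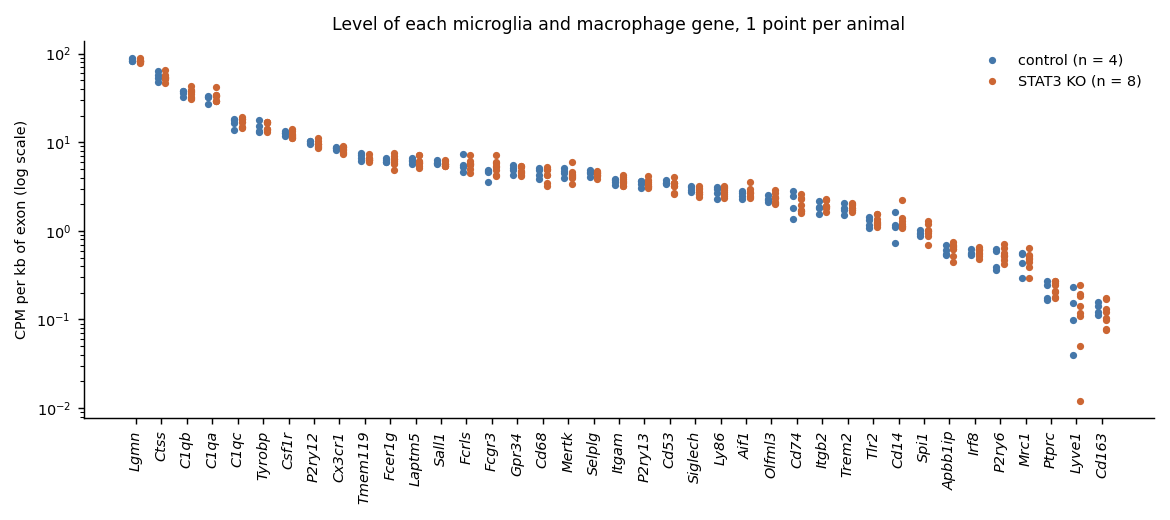
Level of each of the 39 genes in CPM per kb of exon (log axis), with 1 point per animal, controls in blue and STAT3 KO mice in orange. Levels run from Lgmn at 83.9 to Cd163 at 0.124 CPM per kb, and the points of both genotypes overlap for every gene.

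The comparison of genotypes asked whether loss of STAT3 from serotonergic cells went along with other levels of microglia and macrophage genes in the surrounding tissue. The fitted log2 fold changes (STAT3 KO minus control) ran from -0.16 for Cd163 to 0.27 for Fcgr3. Of the 39 genes, 0 passed an adjusted p of 0.05 in edgeR's quasi-likelihood test, where 0.0% of 15453 genes were called, and 0 had an unadjusted p below 0.05, against 7.66% of all genes tested. DESeq2 and limma-voom also called 0 of the 39, with 1 gene each at an unadjusted p below 0.05 (Fcgr3 with DESeq2 and Lgmn with limma-voom). Over the whole series the paper did report genes that differed between genotypes, from its own DESeq2 analysis. The fitted value was higher in STAT3 KO for 21 genes and lower for 18, with a median log2 fold change of 0.0069, while 49.4% of all genes tested were higher, with a median of -0.0011. Log2 fold changes between genotypes are STAT3 KO minus control throughout. The groups overlapped for all 39 genes, where 0.447% of all genes tested had groups that did not. When the mean log2 CPM was permuted exactly over all 495 assignments of the 12 mice, 0 of 39 had a p below 0.05, against 7.11% of all genes.

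The intervals show which differences the data still allow. For 19 of the 39 genes the 95% interval lay within a log2 fold change of 0.25 in either direction, a fold of 1.19. For 34 genes it lay within 0.5, a fold of 1.41. The exceptions were P2ry6, Fcgr3, Cd14, Cd163 and Lyve1, and only the interval of Lyve1 passed a log2 fold change of 1. For 17 of the 39 genes the direction of the fitted value turned under at least 1 alternative setting. Without control 11, 12 of 39 genes were higher in STAT3 KO and the median log2 fold change was -0.042.

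**Figure D2:**
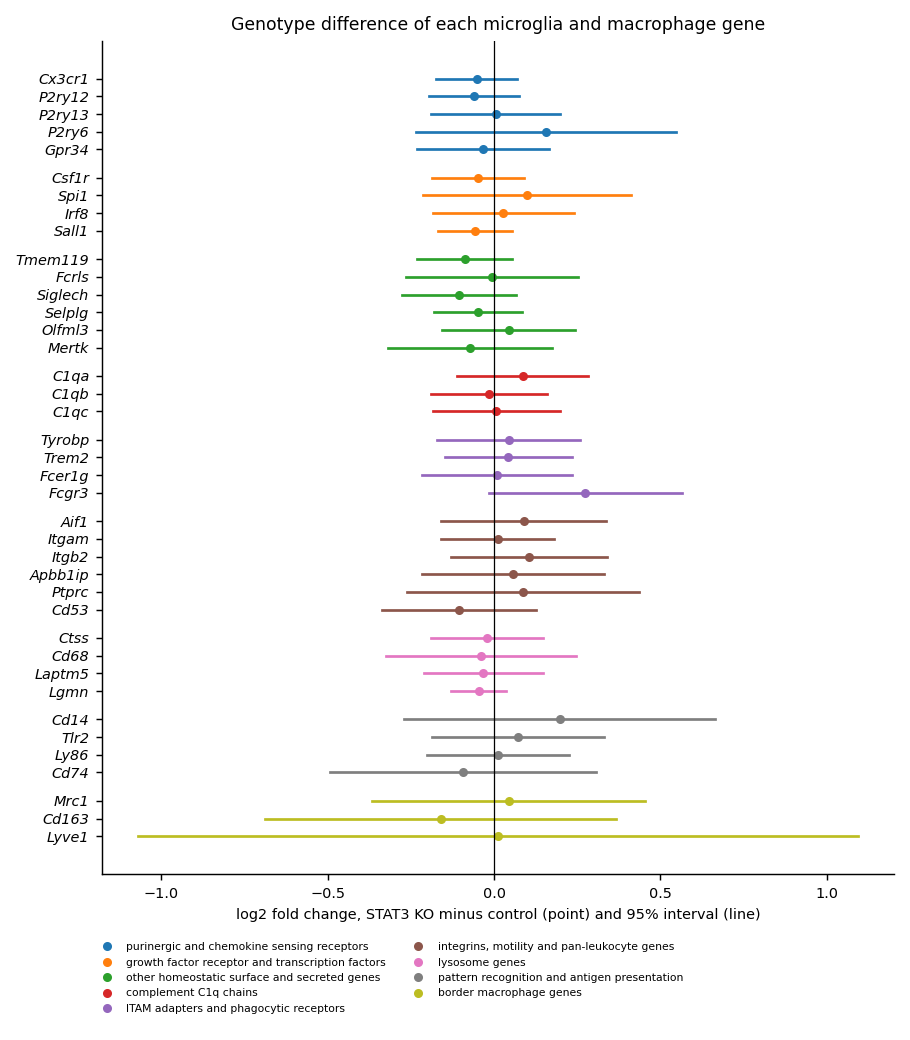
Fitted log2 fold change (STAT3 KO minus control) of each of the 39 genes as a point, with its 95% interval as a line, coloured by role. Every interval spans 0, from the narrow one of Lgmn (-0.13 to 0.036) to that of Lyve1 (-1.07 to 1.09).

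Of the 5 sensing receptors of resting microglia, Cx3cr1 and P2ry12 were among the steadiest genes, with biological coefficients of variation of 6.85% and 7.44% against a median of 11.4% over the 39 genes. Control values are given below in the order of controls 3, 4, 11 and 13. Cx3cr1, the receptor of the neuronal chemokine fractalkine, was at 38.5, 39.7, 38.99 and 37.3 CPM in the controls and 32.9 to 40.5 CPM (median 37.5) in the STAT3 KO mice. The controls lay within the range of the STAT3 KO mice, whose lowest value was that of STAT3 KO 14. For Cx3cr1 the fitted log2 fold change was -0.052 (95% interval -0.17 to 0.070, unadjusted p = 0.381, adjusted p = 0.895). P2ry12, the receptor that guides microglial processes to ADP, was at 24.4, 26.2, 26.2 and 24.7 CPM in the controls and 22.2 to 28.5 CPM (median 24.1) in STAT3 KO. Both the highest animal (STAT3 KO 8) and the lowest (STAT3 KO 6) belonged to the STAT3 KO group. For P2ry12 the fitted log2 fold change was -0.059 (95% interval -0.19 to 0.076, unadjusted p = 0.369, adjusted p = 0.893). The gene body of P2ry12 shares 9 exonic bases with Med12l on the opposite strand. Its neighbour P2ry13, another ADP receptor, had a fitted log2 fold change of 0.0052 (-0.19 to 0.20) and Gpr34, a lysophosphatidylserine receptor on the X chromosome, of -0.033 (-0.23 to 0.16). P2ry6, which senses UDP and triggers phagocytosis, was low (27 to 57 counts per library) and stood at 0.16 (-0.23 to 0.55). The summed level of the 5 receptors was 81.7 to 87.6 CPM in the controls and 73.8 to 90.2 CPM in the STAT3 KO mice.

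Csf1r, the receptor for CSF1 and IL-34 on which microglia depend, was at 73.1, 77.9, 67.3 and 73.2 CPM in the controls and 63.7 to 81.4 CPM (median 69.4) in the STAT3 KO mice. STAT3 KO 8 was highest and STAT3 KO 15 lowest, with the controls between them. For Csf1r the fitted log2 fold change was -0.048 (95% interval -0.19 to 0.091, unadjusted p = 0.473, adjusted p = 0.920). Csf1r shares 873 exonic bases with Hmgxb3 on the opposite strand, and whether the counting used strand is not given in the sources used here. Spi1, which codes for PU.1, was at 2.47, 2.76, 2.54 and 2.35 CPM in the controls and 1.87 to 3.52 CPM (median 2.69) in STAT3 KO, where STAT3 KO 6 was highest and STAT3 KO 14 lowest. For Spi1 the fitted log2 fold change was 0.098 (95% interval -0.21 to 0.41, unadjusted p = 0.514, adjusted p = 0.931). Irf8, a partner of PU.1, stood at 0.028 (-0.18 to 0.24) and Sall1, a regulator of microglial identity, at -0.058 (-0.17 to 0.053).

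Tmem119, a surface protein used to tell microglia from other macrophages, was at 17.6, 16.8, 14.1 and 15.5 CPM in the controls and 13.9 to 16.9 CPM (median 14.8) in the STAT3 KO mice. Controls 3 and 11 were 17.6 and 14.1 CPM, a span that covered nearly all of the STAT3 KO animals. For Tmem119 the fitted log2 fold change was -0.088 (95% interval -0.23 to 0.055, unadjusted p = 0.209, adjusted p = 0.828). Of the other homeostatic surface and secreted genes, Siglech, a sialic acid-binding lectin, stood at -0.10 (-0.28 to 0.066), Selplg, the ligand of P-selectin, at -0.048 (-0.18 to 0.085), and Mertk, a receptor for apoptotic cells, at -0.072 (-0.32 to 0.17). Fcrls, an Fc receptor-like gene, stood at -0.0062 (-0.27 to 0.25) and Olfml3, a secreted matrix protein, at 0.044 (-0.16 to 0.24). Counted over all 13 homeostatic genes, 10 had a lower and 3 a higher fitted value in STAT3 KO, with a median log2 fold change of -0.048. Over all genes tested 49.4% were higher. Under the alternatives 2 to 4 of the 13 genes were higher, and the median ran from -0.080 (without control 11) to -0.012 (without control 4).

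The 3 chains of C1q, the recognition molecule of the classical complement pathway, varied together across animals. C1qa was at 34.8, 33.6, 27.8 and 33.4 CPM in the controls and 30.1 to 43.6 CPM (median 34.4) in the STAT3 KO mice. C1qb was at 41.3, 41.0, 35.5 and 39.6 CPM in the controls and 33.6 to 46.8 CPM (median 38.7) in STAT3 KO, and C1qc at 34.5, 35.5, 26.4 and 31.9 CPM in the controls and 28.0 to 37.0 CPM (median 32.5) in STAT3 KO. STAT3 KO 6 was highest for all 3 chains, and control 11 was lowest for C1qa and C1qc. For C1qa the fitted log2 fold change was 0.085 (95% interval -0.11 to 0.28, unadjusted p = 0.366, adjusted p = 0.892). C1qb stood at -0.015 (-0.19 to 0.16) and C1qc at 0.0069 (-0.18 to 0.20). The ratio of C1qa to C1qb was 0.784 to 0.844 in the controls and 0.829 to 0.956 in STAT3 KO, and its exact two-sided permutation p of 0.0303 became 0.242 after adjustment over 8 ratios chosen after values were seen. Across animals its log2 ratio had an SD of 0.080, where counting noise alone would give 0.064 and the level of C1qa itself had an SD of 0.17.

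Of the adapters and receptors that signal through ITAM motifs, Fcgr3 had the largest fitted rise of the 39 genes, although it did not pass the test. Fcgr3, a low-affinity receptor for IgG, was at 7.96, 8.29, 6.24 and 8.37 CPM in the controls and 7.23 to 12.6 CPM (median 9.20) in the STAT3 KO mice. Of the 8 STAT3 KO mice, 6 were above every control and the other 2 lay within the control range, with STAT3 KO 6 highest. For Fcgr3 the fitted log2 fold change was 0.27 (95% interval -0.016 to 0.56, unadjusted p = 0.0622, adjusted p = 0.664). The exact permutation p was 0.111. Its unadjusted p was 0.0484 with DESeq2, 0.0464 with library totals in place of TMM, 0.0304 without STAT3 KO 15 and 0.0273 without STAT3 KO 7, and the lowest of the adjusted p values under these settings was 0.580. Fcgr3 is close in sequence to its neighbour Fcgr2b, so reads may be split between them. Tyrobp, the adapter DAP12 that carries the signal of TREM2, was at 10.1, 11.7, 8.75 and 8.86 CPM in the controls and 8.64 to 11.3 CPM (median 10.3) in STAT3 KO. Trem2, the lipid receptor that drives the disease-associated state, was at 8.52, 10.1, 7.47 and 9.07 CPM in the controls and 8.03 to 10.1 CPM (median 8.95) in STAT3 KO. For both genes control 4 held the highest value of all 12 animals, and the groups overlapped. For Tyrobp the fitted log2 fold change was 0.044 (95% interval -0.17 to 0.26, unadjusted p = 0.672, adjusted p = 0.961). Trem2 stood at 0.043 (-0.15 to 0.23) and Fcer1g, the common Fc receptor gamma chain, at 0.0080 (-0.22 to 0.23).

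Of the 6 integrin, motility and pan-leukocyte genes, 5 had a higher fitted value in STAT3 KO and 1 a lower one, and 0 passed the test. Of all genes tested, 49.4% were higher, and without control 11 only 3 of the 6 were, with Itgam, Ptprc and Cd53 below 0. Aif1, which codes for the actin-binding marker IBA1, was at 3.51, 4.36, 3.78 and 4.12 CPM in the controls and 3.63 to 5.46 CPM (median 4.11) in the STAT3 KO mice, with STAT3 KO 5 highest. For Aif1 the fitted log2 fold change was 0.089 (95% interval -0.16 to 0.34, unadjusted p = 0.459, adjusted p = 0.917). Itgam, which codes for CD11b of complement receptor 3, was at 19.3, 19.0, 16.4 and 17.9 CPM in the controls and 15.96 to 21.3 CPM (median 18.1) in STAT3 KO. For Itgam the fitted log2 fold change was 0.011 (95% interval -0.16 to 0.18, unadjusted p = 0.894, adjusted p = 0.993). In both genes the control values lay within or close to the range of the STAT3 KO mice. Cd53, a tetraspanin of leukocytes, was at 6.09, 6.00, 5.90 and 6.55 CPM in the controls and 4.55 to 7.05 CPM (median 5.82) in STAT3 KO, where STAT3 KO 15 and 14 were lowest. For Cd53 the fitted log2 fold change was -0.11 (95% interval -0.34 to 0.13, unadjusted p = 0.343, adjusted p = 0.884). It was the second largest fall, after Cd163. Itgb2, the CD18 chain that pairs with CD11b, stood at 0.10 (-0.13 to 0.34), Ptprc, which codes for CD45, at 0.086 (-0.26 to 0.43), and Apbb1ip, an adapter of integrin activation, at 0.057 (-0.22 to 0.33).

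Of the 4 lysosomal genes, Lgmn had the narrowest interval of all 39 genes. Ctss was at 77.1, 86.4, 64.8 and 71.7 CPM in the controls and 63.7 to 88.3 CPM (median 73.1) in the STAT3 KO mice, with STAT3 KO 8 highest and STAT3 KO 15 lowest. For Ctss the fitted log2 fold change was -0.022 (95% interval -0.19 to 0.15, unadjusted p = 0.786, adjusted p = 0.979). Cd68, a lysosomal glycoprotein that marks phagocytic cells, was at 6.50, 6.14, 5.36 and 4.78 CPM in the controls and 4.08 to 6.54 CPM (median 5.74) in STAT3 KO. For Cd68 the fitted log2 fold change was -0.039 (95% interval -0.32 to 0.25, unadjusted p = 0.775, adjusted p = 0.977). The controls of both genes were spread over most of the STAT3 KO range. Lgmn stood at -0.047 (-0.13 to 0.036) with 4928 to 5784 counts per library, and Laptm5, a lysosomal membrane protein of leukocytes, at -0.032 (-0.21 to 0.15). All 4 lysosomal genes had a lower fitted value in STAT3 KO, with log2 fold changes of -0.047 to -0.022, and for Ctss, Cd68 and Laptm5 the direction turned under some alternatives, without control 4 for all 3 of them.

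Among pattern recognition and antigen presentation genes, Cd14, Tlr2 and Cd74 had 34 to 138 counts per library, and Ly86 had 213 to 328. Cd14, the co-receptor for lipopolysaccharide, was at 1.27, 1.93, 2.04 and 2.80 CPM in the controls and 1.88 to 3.84 CPM (median 2.03) in the STAT3 KO mice. STAT3 KO 6 stood apart at 3.84 CPM, above all other animals, while the other 7 STAT3 KO mice lay within the control range. For Cd14 the fitted log2 fold change was 0.20 (95% interval -0.27 to 0.67, unadjusted p = 0.383, adjusted p = 0.896). Its fitted log2 fold change was 0.054 without STAT3 KO 6, and with any 1 animal left out it ran from 0.032 (without control 3) to 0.40 (without control 13). Tlr2, a receptor for bacterial lipoproteins, was at 3.21, 3.53, 4.28 and 4.00 CPM in the controls and 3.32 to 4.73 CPM (median 3.76) in STAT3 KO, with the groups overlapping. For Tlr2 the fitted log2 fold change was 0.071 (95% interval -0.19 to 0.33, unadjusted p = 0.566, adjusted p = 0.945). Cd74, the invariant chain of MHC class II, was at 3.03, 4.14, 2.27 and 4.78 CPM in the controls and 2.67 to 4.38 CPM (median 3.10) in STAT3 KO. Controls 13 and 11 were the highest and the lowest of the 12 animals. For Cd74 the fitted log2 fold change was -0.093 (95% interval -0.49 to 0.31, unadjusted p = 0.628, adjusted p = 0.957). Cd74 shares 12 exonic bases with Mir5107 on the same strand. Ly86, the MD-1 partner of the TLR homologue RP105, stood at 0.012 (-0.20 to 0.23).

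Of the border macrophage genes, Lyve1 and Cd163 had the fewest counts of the 39 genes, and Lyve1 the largest biological coefficient of variation (46.7%). Mrc1, the mannose receptor CD206, was at 2.76, 3.49, 1.89 and 3.59 CPM in the controls and 1.87 to 4.04 CPM (median 3.10) in the STAT3 KO mice, with STAT3 KO 7 and control 11 lowest. For Mrc1 the fitted log2 fold change was 0.043 (95% interval -0.37 to 0.45, unadjusted p = 0.825, adjusted p = 0.988). Cd163, the scavenger receptor for haemoglobin, was at 0.859, 0.618, 0.655 and 0.783 CPM in the controls and 0.417 to 0.959 CPM (median 0.612) in STAT3 KO, from 12 to 28 counts per library. For Cd163 the fitted log2 fold change was -0.16 (95% interval -0.69 to 0.37, unadjusted p = 0.526, adjusted p = 0.936). It had the largest fitted fall of the 39 genes, on so few counts that its interval reached from -0.69 to 0.37. Lyve1, a hyaluronan receptor of perivascular macrophages and lymphatic endothelium, was at 0.672, 0.291, 0.116 and 0.453 CPM in the controls and 0.0353 to 0.711 CPM (median 0.379) in STAT3 KO. STAT3 KO 7 held 1 count of Lyve1, below the floor of 3 counts (0.101 to 0.123 CPM), and control 11 held 3. For Lyve1 the fitted log2 fold change was 0.012 (95% interval -1.07 to 1.09, unadjusted p = 0.981, adjusted p = 0.9995). Without control 11 all 3 genes were lower in STAT3 KO, with a median log2 fold change of -0.20, and without STAT3 KO 7 the median was 0.12.

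**Figure D3:**
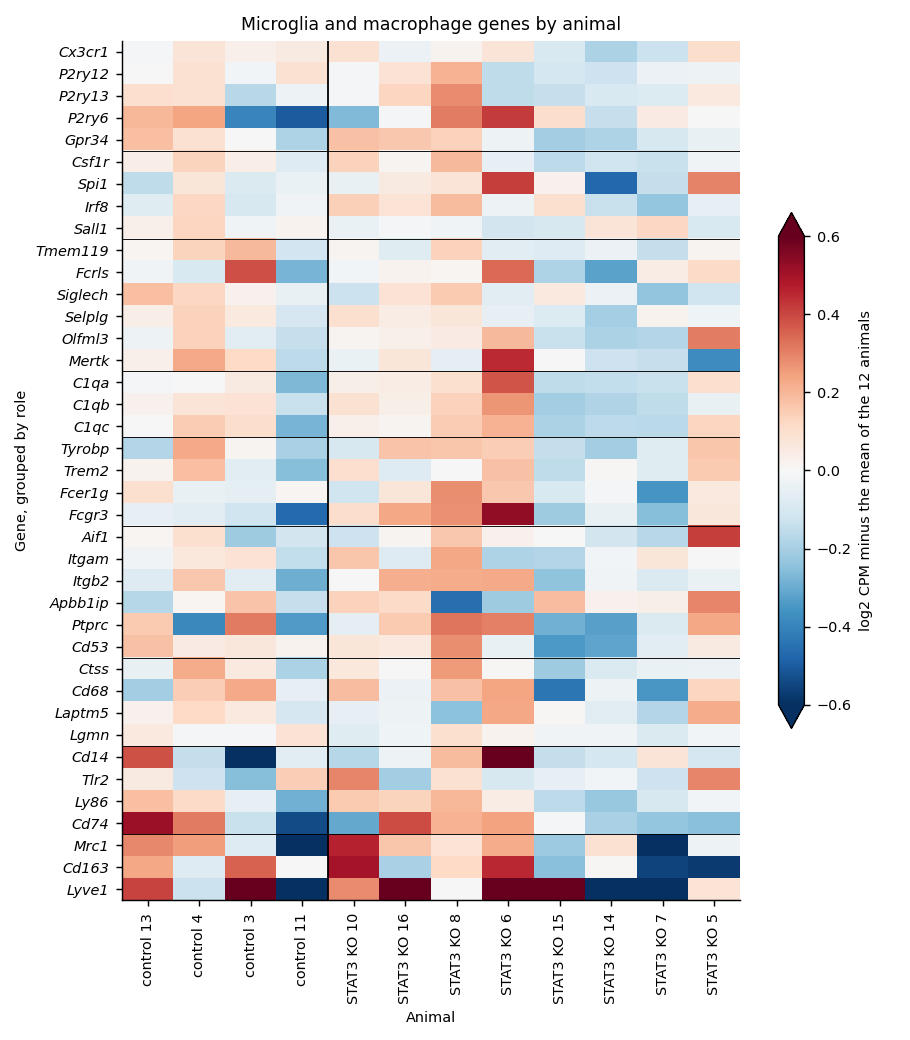
Log2 CPM of each gene in each animal as the difference from the mean of the 12 animals (colour scale from -0.6 to 0.6, values beyond it shown at its ends), with genes grouped by role and the 4 controls left of the line. Control 11 and STAT3 KO 15, 14 and 7 are mostly below the mean, and STAT3 KO 8 and 6 mostly above it.

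Between the 6 females and 6 males, with genotype as a covariate, 0 of the 39 genes passed an adjusted p of 0.05 in edgeR's test, where 0.0841% of all genes were called (13 of 15453). DESeq2 also called 0 of the 39. At an unadjusted p below 0.05 there were 0 of the 39, against 7.2% of all genes. This number was 4 without STAT3 KO 8 (Gpr34, Itgam, Ptprc and Cd53), 2 without STAT3 KO 6 (Fcrls and Ptprc), 1 without STAT3 KO 15 (Apbb1ip) and 0 without any other animal, and the lowest adjusted p among them was 0.511. The fitted differences (female minus male) ran from -0.20 for Cd14 to 0.22 for Ptprc, with a median of 0.0053. The smallest unadjusted p was that of Apbb1ip (0.121), at a log2 difference of 0.19. Gpr34, on the X chromosome, stood at 0.12 (unadjusted p = 0.154). The genotype difference was also compared between sexes. For this interaction 0 of 39 genes were called, with 0.0% of all genes called by edgeR, and 0 of 39 had an unadjusted p below 0.05, against 5.49% of all genes. With an animal left out the latter number was 0 to 2 (2 without STAT3 KO 14, Ptprc and Lyve1). DESeq2 called 0 of the 39 for the interaction. Ptprc had the smallest p. Its mean was 4.75 CPM in control females, 3.11 in control males, 4.21 in STAT3 KO females and 4.12 in STAT3 KO males, an interaction of -0.58 on the log2 scale (SE 0.29, unadjusted p = 0.0638, adjusted p = 0.921). The control arm of this comparison holds 2 animals of each sex.

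Homeostatic, activation and border genes were next compared animal by animal, with each class summarised as the mean log2 deviation of its genes from their mean over the 12 animals. The homeostatic mean was -0.11 to 0.12 in the controls (mean 0.019 ± 0.097 SD, n = 4) and -0.13 to 0.12 in the STAT3 KO mice (mean -0.0094 ± 0.082 SD, n = 8). The activation mean was -0.18 to 0.079 in the controls (mean -0.043 ± 0.13 SD, n = 4) and -0.17 to 0.28 in the STAT3 KO mice (mean 0.022 ± 0.16 SD, n = 8). The border mean was -0.56 to 0.39 in the controls (mean 0.038 ± 0.43 SD, n = 4) and -1.02 to 0.55 in the STAT3 KO mice (mean -0.019 ± 0.49 SD, n = 8). Lyve1, with 1 count in STAT3 KO 7 and at most 20 elsewhere, weighed heavily in it, and without Lyve1 the mean of Mrc1 and Cd163 was -0.31 to 0.26 in the controls (mean 0.045 ± 0.25 SD, n = 4) and -0.59 to 0.48 in the STAT3 KO mice (mean -0.022 ± 0.35 SD, n = 8). In all 3 classes the genotypes overlapped, and the spread widened from homeostatic to activation to border genes, classes of 13, 8 and 3 genes. The means of the classes were positively correlated across animals in all 3 pairs. Homeostatic and activation means had r = 0.77, rho = 0.73 over the 12 animals (0.76 without control 11 and STAT3 KO 14, the animals farthest from the median). Homeostatic and border means had r = 0.58, rho = 0.56 (0.46 without the same animals). Activation and border means had r = 0.59, rho = 0.57 (0.38 without control 11 and STAT3 KO 6). These correlations are descriptions, and both measures of a pair come from the same library and the same dissected square.

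STAT3 KO 6 had the highest activation mean (0.28) and a homeostatic mean of 0.061. Without Cd14 its activation mean was 0.20, with STAT3 KO 8 next at 0.17. STAT3 KO 6 also had the highest border mean (0.55, but 0.34 without Lyve1, where STAT3 KO 10 was highest at 0.48). It was the highest animal for 12 of the 39 genes, among them Fcgr3, Cd14, Cd68 and the C1q chains, and the lowest for P2ry12, Sall1 and Itgam. Of all genes tested, 9.96% were highest in that animal. STAT3 KO 8 was the highest for 11 of the 39 genes, where 18.2% of all genes tested were highest in it. Besides Alas2, STAT3 KO 6 had the highest S100a8 (1.78 CPM against at most 0.577 elsewhere) and Ccr2 (0.960 CPM against at most 0.536), genes of blood myeloid cells. Lck and Skap1, also of the blood leukocyte list, were highest in STAT3 KO 15 (2.29 and 2.60 CPM, against 1.74 and 2.35 CPM in STAT3 KO 6). The mean log2 deviation of that list was 0.64 in STAT3 KO 6 and 0.51 in STAT3 KO 15. Across animals it had r = 0.035, rho = 0.17 with the mean of the 39 genes. The summed level of the blood leukocyte list was 3.81 to 6.55 CPM in the controls and 4.45 to 13.4 CPM in STAT3 KO, and 4 haemoglobin genes were listed at 0 in every library. Since Alas2 had 52 to 535 counts per library, and it is not known whether the counting left the haemoglobin genes out, their 0 was not read as absence of red cell RNA. The part of blood in the values of STAT3 KO 6 was not tested. Without that animal 5 of the 8 activation genes had a higher fitted value in STAT3 KO, with a median log2 fold change of 0.024, against 6 of 8 and 0.044 with it. With any 1 animal left out, these values ran from 4 of 8 and 0.0044 (both without control 11) to 7 of 8 (without STAT3 KO 15 or 7) and 0.083 (without control 4). At the other end, control 11 was the lowest of the 12 animals for 8 of the 39 genes (P2ry6, C1qa, C1qc, Trem2, Fcgr3, Itgb2, Ly86 and Cd74), where 6.85% of all genes tested were lowest in it.

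**Figure D4:**
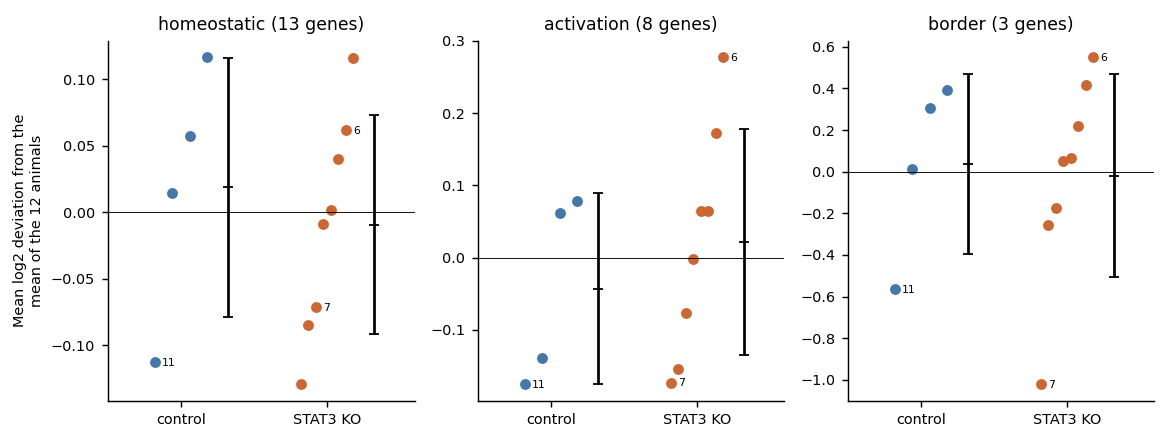
Mean log2 deviation of the 13 homeostatic, 8 activation and 3 border genes in each animal (points, sorted within each genotype), with the mean and SD of each genotype in black and each panel on its own scale. Control 11, STAT3 KO 6 and STAT3 KO 7 are marked by number. The genotypes overlap in all 3 panels, and the border panel spans the widest range.

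The 39 genes varied together across animals. Over their 741 pairs the median correlation of log2 CPM across the 12 animals was 0.34, and 82.5% of pairs were above 0, against a median of -0.002 and 49.7% over all pairs of the 15453 genes tested. After removing the mean of each genotype the median was 0.36. Pairs within a class had a median of 0.33 for homeostatic, 0.41 for activation and 0.57 for border genes. Each gene was then set against the mean of the other 38. C1qc followed it most closely (r = 0.93), then C1qb (0.88), Ly86 (0.86), Csf1r (0.81) and C1qa (0.80). In all, 26 of the 39 genes were above 0.5. Without control 11 and STAT3 KO 7, C1qc was still at 0.90.

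Some members did not follow the rest. Sall1 had a negative r with the mean of the others (r = -0.31, -0.049 without the 2 animals farthest from the median of that mean), as did Apbb1ip (-0.37), and Tlr2 was at 0.0046. Lgmn, the most abundant of all, was at 0.24, and Laptm5 at 0.29. Without the same 2 animals r was -0.56 for Apbb1ip, 0.41 for Lgmn and 0.029 for Laptm5, so these values rest on few animals. Sall1 and Lgmn had means of 842 and 5386 counts per library. Of the 39 genes, 29 had an SD of log2 CPM over 1.5 times that of counting noise.

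**Figure D5:**
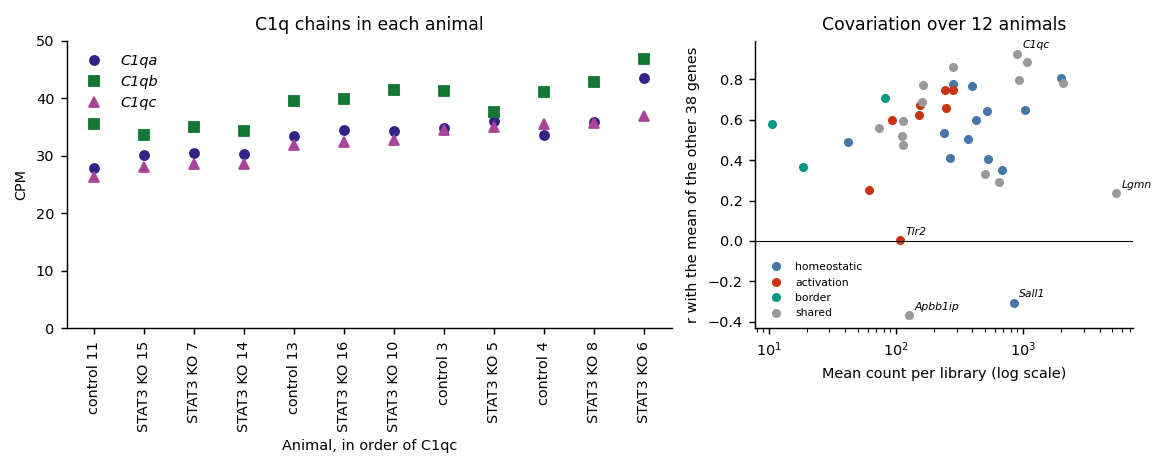
Left, CPM of C1qa, C1qb and C1qc in each of the 12 animals, ordered by C1qc. Right, correlation of each of the 39 genes with the mean of the other 38 over the 12 animals, against its mean count per library (log axis), coloured by class. The chains of C1q climb broadly together from control 11 to STAT3 KO 6, and Apbb1ip and Sall1 lie below 0.

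Members that are neighbours on a chromosome were compared with the other pairs. P2ry12 and P2ry13, 5390 bases apart on chromosome 3, had r = 0.82, and Tmem119 and Selplg, 18020 bases apart on chromosome 5, had r = 0.56. The 3 pairs of C1q genes had r from 0.87 to 0.90. All 5 pairs lay above the median of 0.34 over the 741 pairs. The ratio of P2ry12 to P2ry13 was 2.68 to 3.18 in the controls and 2.69 to 2.96 in STAT3 KO, with an SD of the log2 ratio of 0.078 where counting noise alone would give 0.11.

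Further genes of microglia and their surroundings were examined as lists written from general knowledge. Of 39 other microglial genes that were tested, 0 were called by edgeR and 2 had an unadjusted p below 0.05, where 7.66% of all genes tested did, with 26 higher and 13 lower in STAT3 KO and a median log2 fold change of 0.036. Cd33, an inhibitory sialic acid-binding lectin, was at 3.14, 3.93, 3.47 and 3.30 CPM in the controls and 3.63 to 4.53 CPM (median 4.09) in STAT3 KO, with a log2 fold change of 0.24 (SE 0.094, unadjusted p = 0.0212, adjusted p = 0.615). Dock8, a regulator of leukocyte migration, stood at 0.24 (SE 0.11, adjusted p = 0.646). Both were higher in STAT3 KO on average and neither passed the adjusted threshold. The mean of this list followed that of the 39 members across animals (r = 0.89, rho = 0.78, 0.88 without control 11 and STAT3 KO 7). In it 17 of 39 genes (43.6%) had r above 0.5 with the members' mean, against 8.84% of all other genes tested. Inpp5d, for example, was at 0.77 and Adgrg1 at -0.41. Over all tested genes the closest were Nupr1 (r = 0.89), Ptpn6 (0.88) and Ncaph2 (0.87), so genes outside the microglial lists followed the members as closely.

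Of the genes of disease-associated and inflammatory microglia, 23 of 33 were tested, 0 were called and 6 had an unadjusted p below 0.05, with 3 higher and 3 lower, where 7.66% of all genes tested did. The lower ones included Igf1, a growth factor that also comes from other cells, at 11.7, 6.25, 7.51 and 7.62 CPM in the controls and 5.36 to 7.62 CPM (median 5.85) in STAT3 KO. For Igf1 the log2 fold change was -0.41 (SE 0.14, unadjusted p = 0.0110, adjusted p = 0.615). Spp1, which codes for osteopontin, stood at -0.42 (SE 0.17, adjusted p = 0.615), Cd63, a lysosomal tetraspanin, at 0.11 (SE 0.045, adjusted p = 0.630) and Il1a, an inflammatory cytokine, at 0.67 (SE 0.29, adjusted p = 0.630). Over the 23 tested genes 14 were higher and 9 lower in STAT3 KO, with a median log2 fold change of 0.085. The mean log2 deviation of this list was -0.17 to -0.042 in the controls and -0.10 to 0.33 in STAT3 KO, where STAT3 KO 6 was the highest, and the groups overlapped. Of 17 other border macrophage genes 10 were tested, with 0 called, 7 higher and 3 lower in STAT3 KO, and log2 fold changes from -0.14 to 0.65 (median 0.24). The mean log2 deviation of this list was -0.031, -0.0058, -0.71 and 0.20 in controls 3, 4, 11 and 13 and -0.23 to 0.52 in STAT3 KO, so control 11 stood far below the rest and the other 3 controls lay within the STAT3 KO range. F13a1, the macrophage factor XIII chain, had 1.79, 2.91, 1.08 and 2.35 CPM in the controls and 2.20 to 4.20 CPM (median 2.89) in STAT3 KO (log2 fold change 0.61, SE 0.25, adjusted p = 0.615). Their mean followed that of Mrc1, Cd163 and Lyve1 (r = 0.66, rho = 0.76). Of 8 tested genes of MHC class II presentation and costimulation, 0 were called, 5 were higher and 3 lower in STAT3 KO, and the median log2 fold change was 0.0098. The class II chain H2-Aa stood at -0.15 (SE 0.23, adjusted p = 0.937) and the costimulatory ligand Cd86 stood at 0.37 (SE 0.16, adjusted p = 0.630).

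Ligands read by microglial receptors were tested for all 14 genes of the list, with 0 called and 2 at an unadjusted p below 0.05, against 7.66% of all genes tested. Tgfb3, a ligand of the TGF-beta family that maintains microglia, stood at -0.19 (SE 0.083, adjusted p = 0.631). C3, the complement component downstream of C1q, was at 2.76, 1.05, 2.08 and 1.90 CPM in the controls and 1.59 to 10.3 CPM (median 2.38) in STAT3 KO, with a log2 fold change of 1.19 (SE 0.55, adjusted p = 0.647). Its spread in STAT3 KO was wide, and the median STAT3 KO animal lay within the control range. In the lists of other cell types 0 genes were called by edgeR. Beside the same 7.66% of all genes, an unadjusted p below 0.05 was found for 3 of 9 astrocyte, 1 of 8 oligodendrocyte, 0 of 8 endothelial, 1 of 5 pericyte, 1 of 7 meningeal fibroblast and 4 of 8 neuronal genes. It was found for 2 of 5 choroid plexus, 3 of 5 ependymal, 1 of 6 forebrain and 0 of 6 serotonergic genes, and for 0 of 3 blood leukocyte genes and the 1 erythroid gene tested it was not reached. Fitted values were lower in STAT3 KO for 8 of 8 oligodendrocyte, 7 of 8 endothelial, 5 of 5 pericyte and 6 of 6 forebrain genes, and higher for 7 of 9 astrocyte, 5 of 5 ependymal, 5 of 5 choroid plexus and 5 of 6 serotonergic genes. They were higher for 3 of 7 meningeal fibroblast, 3 of 8 neuronal and 2 of 3 blood leukocyte genes and for the erythroid gene. Across animals, the members' mean had r = 0.62, rho = 0.71 with endothelial genes, r = 0.64, rho = 0.66 with MHC class II genes, r = -0.061, rho = -0.042 with astrocyte genes and r = -0.22, rho = -0.14 with neuronal genes. Without control 11 and STAT3 KO 7 the value for MHC class II was 0.19, so it rested on those animals, and the value for endothelium was 0.54. With serotonergic genes the members' mean had r = 0.16, rho = 0.45, and 0.54 without the same animals. With the forebrain and choroid plexus lists, which set single libraries apart, r was 0.16 and 0.43 (-0.023 and 0.42 without those animals), and with ependymal genes it was -0.42 (-0.30). With the total count of the library it was -0.017, and 0.44 without control 13 and STAT3 KO 15, the libraries farthest from the median total. These values describe 12 animals and share the library and the dissected square.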

How the data were processed

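RNA of the DR of 4 control and 8 STAT3 KO mice was prepared with the NEBNext Ultra II kit and sequenced on a NextSeq500 as single reads, with 1 library per animal. The authors mapped the reads with STAR 2.5.0b to mm10, and the deposited files hold raw counts per gene symbol, without normalisation. DESeq2 1.6.3 is also named in the submitters' processing notes. The read counter, annotation and strand setting are not given in the sources used here. Lines for reads assigned to no gene (13.4% to 15.3% of the counts listed) or to several (0.507% to 0.562%) were left out. Groups, sexes and animal numbers came from the sample labels.

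Genes were filtered with filterByExpr (10 counts per library, 15 in total), which left 15453, and tested with edgeR 4.0.16 (quasi-likelihood test, TMM, two-sided, Benjamini-Hochberg threshold 0.05, R 4.3.3). Genotype was fitted alone, sex with genotype as a covariate, and their interaction in all 12 animals. Standard errors were obtained from the log2 fold change and the root of its F statistic, and 95% intervals use the fit's degrees of freedom. A prior count of 2 was added before log2 CPM was taken. The mean log2 CPM of each gene was further tested by two-sided exact permutation of the 12 animals into 4 and 8, with a smallest possible p of 0.00202. At this depth the floor of 3 counts equals 0.101 to 0.123 CPM, for counting error only. Counting noise of a log2 level was taken from the mean count. Exon lengths and positions are those of GENCODE vM21 (GRCm38).

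The 39 genes, their classes and 17 further lists (208 genes, 206 of them listed) were chosen from general knowledge, with earlier results of these data known. Among the 39, the value of each control and the range and median of the STAT3 KO mice are given for selected genes. These are 18 representative genes, genes with an unadjusted p below 0.05, the 2 largest rises and falls, and genes under 10 counts in any animal. Of each list, at most 4 genes with the smallest p were eligible for naming with their genotype difference. Outside this rule, Inpp5d and Adgrg1 were named for their correlation with the members, and S100a8 as a blood gene. Alternatives were DESeq2 1.42.0, limma-voom 3.58.1 with quality weights, RLE, library totals, other filters, a fit that included sex, and leaving out each animal in turn. Figures were drawn with Python 3.11.15 and matplotlib 3.10.9.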

Additional observations from a re-analysis of the deposited data

Results flagged for a closer look

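Of 86 sets of values examined for a single distant animal (39 genes and 4 class means, in the 4 controls and in the 8 STAT3 KO mice), 1 stood out, where chance alone gives about 1 in 20 (4.3 sets). It was Cd14 in the STAT3 KO group. STAT3 KO 6 had a log2 CPM of 1.97 and the other 7 STAT3 KO mice lay between 0.97 and 1.33, so the gap to the nearest animal was 0.636 of the group's whole range, above Dixon's critical value for 8 samples. Cd14 had 34 to 108 counts per library. The same animal had the highest Alas2, S100a8 and Ccr2 of the 12 mice, but not the highest Lck or Skap1. The part of blood in its Cd14 value was not tested.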

How the results depend on the processing

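The count of 0 members called was the same under every alternative run for genotype, sex and the interaction (edgeR's quasi-likelihood test, DESeq2, RLE, all genes with at least 1 count and each animal left out, and, for genotype alone, limma-voom, library totals, at least 10 counts in every library and sex as a covariate), and the permutation test gave 0 members with a p below 0.05 with RLE, a prior count of 0.5 and mean CPM. Members with an unadjusted p below 0.05 between genotypes numbered 0, and 1 with DESeq2, with limma-voom and with library totals, and 0 to 1 with an animal left out (1 without STAT3 KO 15 or 7). Over all genes, 0 were called between genotypes, 6 with DESeq2, and 0 to 1 with an animal left out (1 without control 4). The paper's own DESeq2 analysis reported more genes than any of these settings. Between sexes 13 were called over all genes, 24 with DESeq2, and 10 to 13 with an animal left out. The number of members with a higher fitted value in STAT3 KO was 21, and 12 (without control 11) to 24 (without STAT3 KO 15) with an animal left out, with a median log2 fold change from -0.042 to 0.023. It was 16 with limma-voom, where the median was -0.030, and 24 with library totals. The cause of these differences was not tested. Of the 39 genes, 17 changed the sign of their fold change under at least 1 of 19 settings. With at least 10 counts in every library, Lyve1 was no longer tested. The lowest counts were 1 to 20 of Lyve1, 12 to 28 of Cd163 and 27 to 57 of P2ry6 per library. No paired analysis was possible because the labels do not say which mice shared a litter and the animal numbers pair no mice.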
